A study of Mus musculus with 2 samples.

Results

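Within the PK44 population of the mouse yolk sac, cells with high *Runx1* (Runx1-high) were compared with cells with little or no *Runx1* (Runx1-low). PK44 cells are sorted as CD41-CD43-CD45-CD31+CD201+*Kit*+CD44+ and are regarded as hemogenic endothelial cells, the endothelial cells from which blood cells arise. The cells came from E10.0 embryos on a C57BL/6 background, with no transgene or treatment, and were picked singly and sequenced as 2 libraries (replicates 1 and 2) by a modified STRT-seq method that counts transcripts by unique molecular identifiers (UMIs). The number of embryos behind each library is not given in the sources used here. The p-values below, unless stated otherwise, come from fits with the library as a term. They measure only how far the difference between the groups varied between these 2 libraries, a spread that may be technical. Of 87 cells, 3 with 100 or more *Col1a1* counts were left out, and the other 84 were split by their *Runx1* level in CPM (counts scaled to 1000000 per cell): 33 with 100 CPM or more were Runx1-high and 51 under 100 CPM were Runx1-low. Replicate 1 gave 19 Runx1-high and 22 Runx1-low cells, replicate 2 gave 14 and 29, and no cell barcode was shared between the libraries (0 shared).

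*Runx1* is a DNA-binding transcription factor that works as a heterodimer with *Cbfb* and is required when endothelial cells turn into blood cells, the endothelial-to-hematopoietic transition. During this transition cells are known to lose junctional and vascular genes and to gain hematopoietic regulators such as *Spi1* and *Gfi1*. The comparison asks which other genes differ between PK44 cells with a high and a low *Runx1* level.

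The groups were chosen by the measured *Runx1* level, which is therefore given as a description with no test. In replicate 1, the lowest, median and highest *Runx1* levels were 199.8, 414 and 1087 CPM in Runx1-high cells and 0, 4.32 and 64.4 CPM in Runx1-low cells. In replicate 2 they were 129, 292 and 835 CPM in Runx1-high cells and 0, 4.17 and 86.6 CPM in Runx1-low cells. Cells between 50 and 200 CPM numbered 1 of the Runx1-high and 3 of the Runx1-low cells in replicate 1, and 5 and 3 in replicate 2. The 3 cells of replicate 1 just under the threshold had 52.2, 52.7 and 64.4 CPM and the 3 just over it 199.8, 211 and 216 CPM. In replicate 2 the same cells had 76.1, 82.0 and 86.6 CPM and 129, 130 and 140 CPM. *Runx1* had 0 counts in 10 of 22 and 9 of 29 Runx1-low cells. After each cell was thinned to 20000 counts, all 19 and all 14 Runx1-high cells still had 2 or more *Runx1* counts, against 1 and 2 Runx1-low cells. The share of Runx1-high cells was 46.3% in replicate 1 (exact 95% binomial interval, 30.7 to 62.6%) and 32.6% in replicate 2 (19.1 to 48.5%), intervals that cover counting error only.

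**Figure D1:**
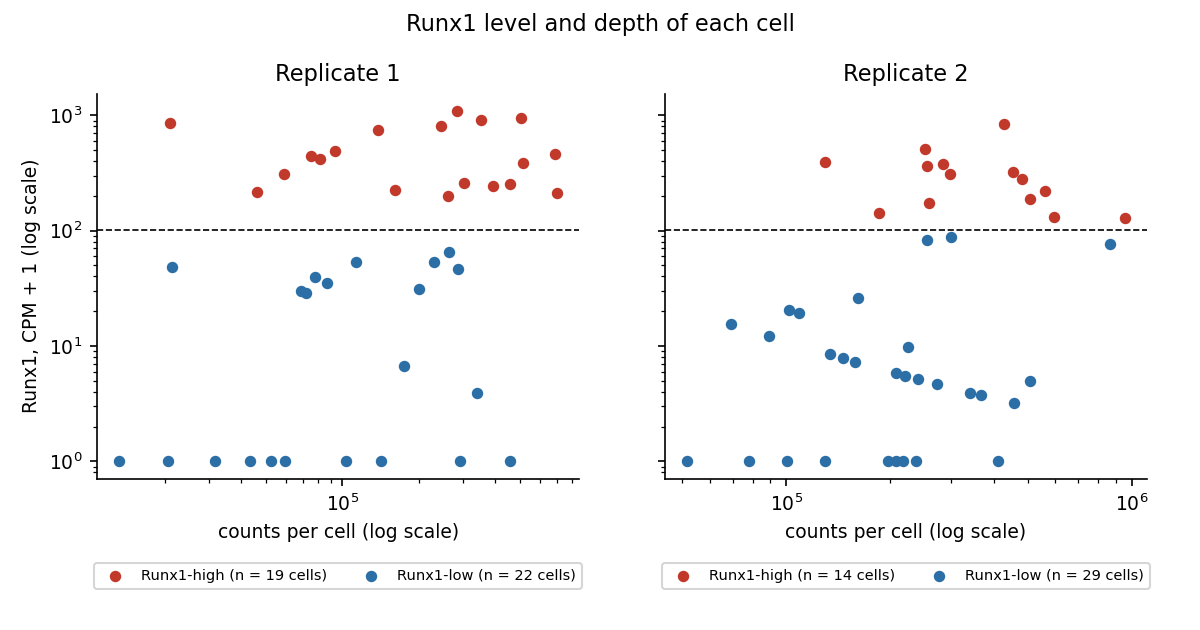
*Runx1* level of each cell (CPM + 1, log scale) against its total counts (log scale) in each library, with the threshold of 100 CPM dashed. Runx1-high cells (red) start at 199.8 and 129 CPM in replicates 1 and 2, and the Runx1-low cells (blue) end at 64.4 and 86.6 CPM.

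Runx1-high cells had higher median total counts than Runx1-low cells in both libraries. The median total was 260240 counts in Runx1-high and 95376 in Runx1-low cells of replicate 1, and 362720 and 208350 in replicate 2. Summed over cells, the 4 groups held 5381932, 3149424, 5648353 and 6864197 counts in the same order. The median number of genes detected was 4989 and 3579 in replicate 1 and 6734 and 5688 in replicate 2. At 20000 counts per cell it was still higher in Runx1-high cells, 2670 against 2264 in replicate 1 and 3909 against 3476 in replicate 2. The part of depth in the differences below was tested only through thinning, and RNA content and capture per cell cannot be told apart in these counts.

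Runx1-high cells had lower levels of endothelial genes, among them arterial genes such as *Gja5*, *Gja4* and *Dll4*, the receptor gene *Kdr*, the junction genes *Cdh5* and *Cldn5*, and the scavenger receptor genes *Lyve1*, *Stab1*, *Stab2* and *Mrc1*. They had higher levels of *Kit* and *Coro1a*, and of nucleolar genes such as *Ncl*, *Npm1* and *Nhp2*. Among 29 hematopoietic transcription factor genes tested, *Spi1*, *Ikzf1*, *Bcl11a* and *Etv6* were higher. The other 25 did not pass the test below, 10 of the 29 had estimates below 0, and the median log2 fold change of the 29 was 0.17. Of 10561 genes tested, edgeR's quasi-likelihood test with the library as a term called 40 higher (0.379%) and 126 lower (1.19%) in Runx1-high cells at an adjusted p under 0.05, 166 in all (1.57%). The median log2 fold change was 1.95 over the 40 genes and -2.08 over the 126, against 0.02 over all genes tested. All 40 and all 126 went the same way in both libraries, a direction the test itself favours, and 39 and 123 also did so in both libraries with thinned cells.

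The number of calls depended on the library term and on thinning. Without the library term edgeR called 0 genes in either direction, with 609 at an unadjusted p under 0.05, while DESeq2 with the library as a term called 58 higher and 188 lower; with cells thinned to 20000 counts edgeR called 0 higher and 7 lower of 6683 genes, with 581 at an unadjusted p under 0.05. With thinned cells regrouped by their thinned *Runx1* counts it called 23 higher and 78 lower of 6785 genes, of which 16 and 59 were among the 40 and 126; thinned cells below are those with the groups kept unless regrouping is named. The 7 were *Adamts5*, *Cldn5*, *Gja5*, *Lyve1*, *Malat1*, *Sparc* and *Tmem2*, and all were among the 126. Estimates with thinned cells were 2.62 for *Coro1a* (2.36 with all counts) and -2.02 for *Kdr* (-2.02), but 1.04 for *Samsn1* (2.30) and -0.84 for *Mcam* (-2.37).

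**Figure D2:**
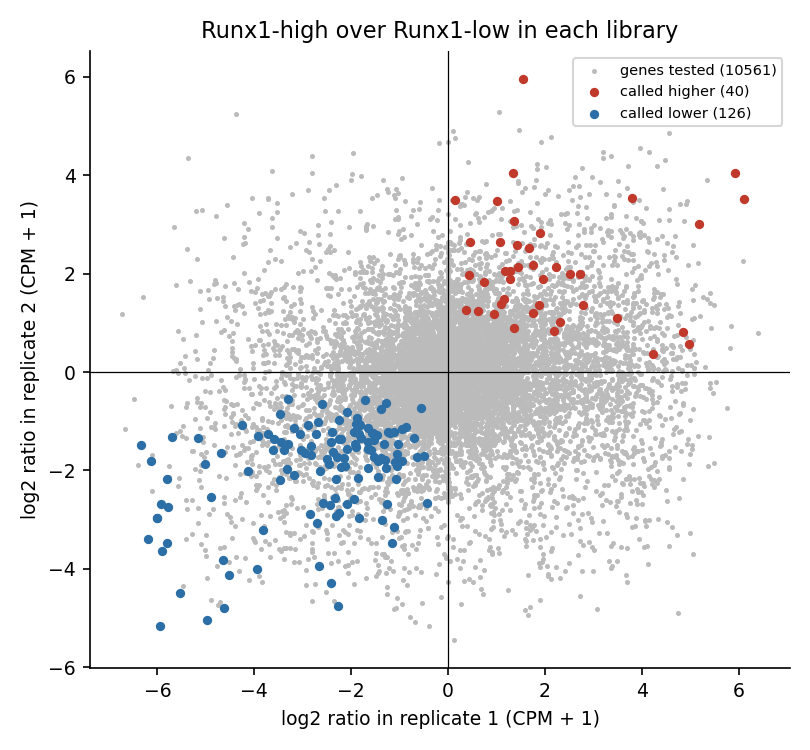
Log2 ratio of Runx1-high over Runx1-low (CPM + 1 of summed counts) in replicate 1 (x axis) and replicate 2 (y axis) for the 10561 genes tested (grey). The 40 genes called higher (red) lie in the upper right quadrant and the 126 called lower (blue) in the lower left.

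Of the 40 genes called higher, 34 met the rule for named genes, which asks for a mean of 50 CPM or more in the higher group, a count in at least 25% of its cells in each library, no cell with over 50% of its counts there, and the same direction in full and thinned counts. The 12 with the largest estimates included regulators of blood development and enzymes of growth. *Coro1a*, an actin-binding protein of blood cells (7:126699773-126707787), stood at 274 and 286 CPM in the Runx1-high sums of replicates 1 and 2 and at 72.4 and 39.6 CPM in the Runx1-low sums. Its log2 fold change was 2.36 ± 0.46 (SE derived from the F statistic of the test; edgeR quasi-likelihood test, Benjamini-Hochberg adjusted p = 8.11e-05). Both Runx1-high sums lay above both Runx1-low sums. *Dctpp1*, a pyrophosphatase that clears dCTP, had 386 and 455 CPM against 81.9 and 103 CPM, the narrowest error among the 12 (log2 2.17 ± 0.38, edgeR adjusted p = 6.89e-06). *Spi1*, the ETS factor PU.1 of myeloid and lymphoid development (2:91082390-91115756), had 192 and 121 CPM in Runx1-high and 95.3 and 10.1 CPM in Runx1-low sums (log2 2.26 ± 0.59, edgeR adjusted p = 0.0154). In replicate 1, 82.3% of the *Spi1* counts of the Runx1-low sum came from 1 cell, and the gene was counted in 10 of 19 Runx1-high and 12 of 22 Runx1-low cells there. In replicate 2 it was counted in 11 of 14 Runx1-high and 9 of 29 Runx1-low cells.

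The other named genes that rose differed in how evenly the libraries contributed. *Etv6*, a transcriptional repressor needed for blood stem cells, had 134 and 107 CPM against 19.4 and 26.4 CPM, and *Mycn*, a *Myc* family factor, had 157 and 131 CPM against 48.6 and 22.0 CPM. *Erdr1* had 208 and 169 CPM against 35.6 and 41.7 CPM, and counts of this multi-copy gene are uncertain. These were higher in the Runx1-high sums of both libraries, with log2 ratios of 2.73 and 1.98 for *Etv6*, 1.67 and 2.52 for *Mycn* and 2.51 and 2.00 for *Erdr1*. *Sms* (spermine synthase) had 347 against 17.5 CPM in replicate 1 but 118 against 90.6 CPM in replicate 2. *Pin4*, a peptidyl-prolyl isomerase, had 110 against 2.86 CPM and then 112 against 63.4 CPM, and *Ccdc55*, a splicing regulator, 120 against 2.86 CPM and then 125 against 83.3 CPM. For these 3 genes most of the difference came from replicate 1. *Adsl*, an enzyme of purine synthesis, leaned the other way, with 99.6 against 38.1 CPM in replicate 1 and 219 against 25.3 CPM in replicate 2. *Samsn1*, an adaptor of blood cells, had 210 against 17.8 CPM and 93.5 against 43.1 CPM. *Nupr1*, a stress-response chromatin protein, had the largest estimate of the 12 and the widest error (log2 4.15 ± 1.19), at 70.8 against 23.5 CPM and 97.4 against 0.583 CPM, with counts in 9 of 19 and 6 of 14 Runx1-high cells, and 98.6% of its Runx1-low counts in replicate 1 came from 1 cell. Of 15 alternatives, calls were kept in 11 for *Coro1a* and *Dctpp1*, 8 for *Erdr1*, 7 for *Samsn1*, *Spi1* and *Mycn*, 6 for *Nupr1*, 5 for *Adsl* and 4 for *Etv6*, *Pin4*, *Ccdc55* and *Sms*. The estimate of *Samsn1* was 1.11 with the cells that had any *Ptprc* count or 10 or more *Lyz2* counts left out. Wherever cells that had *Ptprc* or *Lyz2* are left out below, this rule was used. Cells with fewer *Lyz2* counts and no *Ptprc* count were kept.

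**Figure D3:**
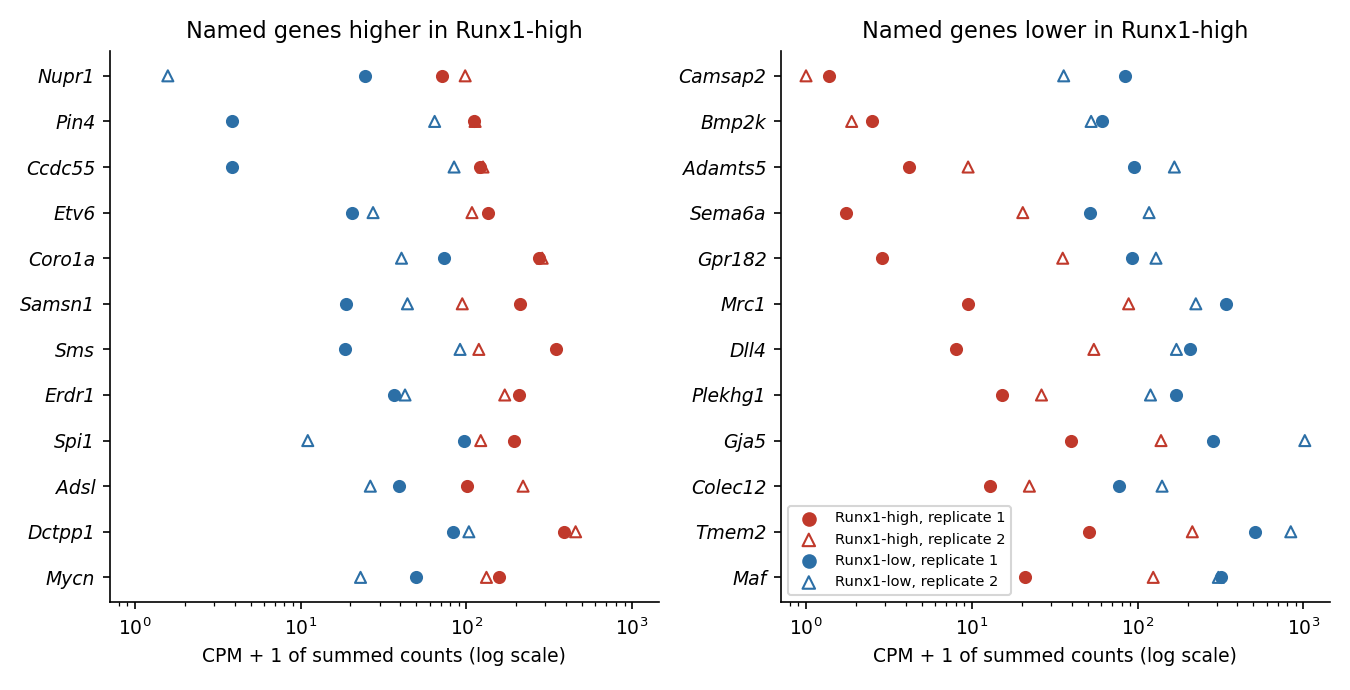
CPM + 1 (log scale) of the 24 named genes in the summed counts of Runx1-high (red) and Runx1-low (blue) cells of replicate 1 (filled circles) and replicate 2 (open triangles). For each gene both red symbols lie on the same side of the blue symbol of their own library, and *Dctpp1* and *Gja5* show it in both libraries to a similar extent, whereas *Sms* differs mostly in replicate 1.

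Among the 126 genes called lower, 87 met the same rule, and the 12 with the largest estimates are described here and below. *Gja5*, the arterial gap junction protein connexin 40 (3:96904693-97077416), had 38.8 and 137 CPM in Runx1-high and 285 and 1019 CPM in Runx1-low sums. Its log2 fold change was -2.90 ± 0.35, with the smallest adjusted p of all genes tested (1.49e-12, edgeR quasi-likelihood, Benjamini-Hochberg). Per cell the 2 libraries differed: in replicate 1 the median *Gja5* level was 10.6 CPM in Runx1-high and 9.84 CPM in Runx1-low cells, with a higher maximum in the latter (506 against 1612 CPM), and in replicate 2 it was 97.7 against 1013 CPM. The difference in replicate 1 thus lay in a subset of Runx1-low cells with high *Gja5*. *Dll4*, the Notch ligand of arterial endothelium, had 7.06 and 53.5 CPM against 205 and 170 CPM (log2 -3.23 ± 0.61, edgeR adjusted p = 5.08e-05). *Tmem2*, a cell surface hyaluronidase, had 49.98 and 213 CPM against 511 and 838 CPM (log2 -2.68 ± 0.35, edgeR adjusted p = 6.27e-11). *Adamts5*, a secreted protease that cleaves proteoglycans, had 3.16 and 8.50 CPM against 94.3 and 166 CPM, and was lower in both libraries to about the same extent.

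The remaining named genes that fell ranged from near 0 to 123 CPM in the Runx1-high sums. *Camsap2*, which stabilises microtubule minus ends, had 2 and 0 counts in the Runx1-high sums against 262 and 239 counts in the Runx1-low sums. In replicate 1 this is a ratio of 224 in CPM (exact 95% interval, 61.4 to 1858), and in replicate 2 *Camsap2* was at least 65.6-fold lower, taking 3 counts per library as the floor. The interval covers counting error only, and the difference depended on the *Runx1* threshold: the log2 fold change of *Camsap2* was -8.41, and -7.997 and still called with a threshold of 200 CPM, but -3.90 with one of 50 CPM and -2.90 with cells thinned and regrouped, where it did not pass the test. It was counted in only 9 of 22 and 10 of 29 Runx1-low cells. *Bmp2k*, a serine/threonine kinase, had 1.49 and 0.885 CPM against 60.3 and 51.4 CPM, and *Sema6a*, a transmembrane semaphorin, 0.743 and 19.3 CPM against 50.8 and 116 CPM. *Gpr182*, a chemokine-binding receptor of endothelium, had 1.86 and 34.3 CPM against 92.1 and 128 CPM. For *Bmp2k* the log2 fold change was -5.59, but -2.50 and not called with a threshold of 50 CPM, and its call was kept in 5 of 15 alternatives. *Camsap2* and *Bmp2k* were close to 0 in both Runx1-high sums, and *Sema6a* and *Gpr182* only in that of replicate 1. *Plekhg1*, a guanine nucleotide exchange factor, had 14.3 and 25.3 CPM against 169.6 and 119 CPM, and *Colec12*, a scavenger receptor of endothelium, 11.9 and 21.2 CPM against 76.2 and 139 CPM. *Maf*, a basic leucine zipper factor, had 20.1 and 123 CPM against 319 and 306 CPM, so its difference was larger in replicate 1. Of 15 alternatives, calls were kept in 13 for *Gja5* and *Tmem2*, 12 for *Adamts5*, *Mrc1* and *Maf*, 11 for *Dll4*, 9 for *Camsap2*, *Sema6a*, *Plekhg1* and *Colec12*, and 8 for *Gpr182*.

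Of the 33 genes on the list of hematopoietic transcription factors, 29 were tested, 4 were called higher and 0 lower. The median log2 fold change of the list was 0.17, against 0.02 over all genes tested, and 0.379% of all genes were called higher. In another fit, cells with any *Ptprc* count or 10 or more *Lyz2* counts were left out. There 1 of 28 was called and the median was -0.05. With thinned cells none of 23 passed the test, and with the deepest cells left out 1 of 29 did. The 4 were *Spi1* and *Etv6* (above), *Ikzf1* and *Bcl11a*. *Ikzf1*, the zinc finger factor Ikaros of lymphoid and stem cells, had 286 and 59.8 CPM in Runx1-high and 84.5 and 12.5 CPM in Runx1-low sums (log2 1.98 ± 0.53, edgeR adjusted p = 0.0198). *Bcl11a*, a repressor of fetal globin genes, had 231 and 191 CPM against 102 and 44.9 CPM (log2 1.61 ± 0.48, edgeR adjusted p = 0.0459). Its call was kept in 2 of 15 alternatives, although the estimate was above 0 in all 15. Several factors that act with *Runx1* in early blood formation did not pass the test. *Gfi1*, a repressor of endothelial genes downstream of *Runx1*, had 38.5 and 53.1 CPM against 12.1 and 3.06 CPM (log2 2.86 ± 1.45), and its relative *Gfi1b* 39.0 and 25.8 CPM against 7.94 and 3.93 CPM (log2 2.48 ± 1.68). Both had Runx1-high sums above the Runx1-low sums, with wide errors. *Myb*, needed for definitive blood cells, had 55.6 against 108 CPM in replicate 1 and 34.5 against 1.31 CPM in replicate 2, opposite directions in the sums. In replicate 1 it was counted in 15 of 19 Runx1-high and 10 of 22 Runx1-low cells. The medians there were 13.3 and 0 CPM, and the highest Runx1-low cell had 1024 CPM. In replicate 2 *Myb* was counted in 8 of 14 Runx1-high and 7 of 29 Runx1-low cells. *Gata2* (log2 0.17 ± 0.55), *Tal1* (0.05 ± 0.60) and *Fli1* (0.06 ± 0.44), which are shared by endothelial and blood cells, had estimates within their errors of 0. The *Runx1* partner gene *Cbfb* was at 134 and 124 CPM in Runx1-high and 173 and 201 CPM in Runx1-low sums (log2 -0.55 ± 0.44). *Gata1* and *Cebpa*, factors of erythroid and granulocytic cells, had 0 counts in all 4 sums.

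Of 7 genes that the study uses as hematopoietic features of such cells, *Runx1* aside, all 7 had estimates above 0 in both libraries and 3 were called higher, against 0.379% of all genes tested. DESeq2 called 1 of the 7, as did edgeR with the deepest cell of each library and group left out (median 1.77), and with thinned cells none of 6 passed the test (median 1.92). Their median log2 fold change was 1.70 (1.17 in replicate 1 and 2.49 in replicate 2). The study chose this list to score such cells, so it is not independent evidence of direction. The called genes were *Bcl11a* (above), *Adgrg1* and *Neurl3*. *Adgrg1*, the adhesion receptor Gpr56 of blood stem cells, had 331 and 304 CPM against 136 and 72.7 CPM (log2 1.65 ± 0.40, edgeR adjusted p = 0.00599). *Neurl3*, a ubiquitin ligase, was called (log2 1.81 ± 0.48, edgeR adjusted p = 0.0160), but its values were 269 against 244 CPM in replicate 1 and 233 against 19.7 CPM in replicate 2. Replicate 2 thus carried the call for *Neurl3*, whose log2 ratio with thinned cells was -0.00 in replicate 1. *Hlf* (88.6 and 40.7 CPM against 73.0 and 2.91 CPM) and *Angpt1* (111 and 72.4 CPM against 105 and 12.1 CPM) had the same pattern and did not pass the test. *Ikzf2* had 209.6 and 75.4 CPM against 82.2 and 17.6 CPM and did not pass it either.

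Among the 7 genes of the sort, only *Kit* was called, against 0.379% of all genes tested called higher. Its call was kept in 8 of 15 alternatives. It was lost with thinned cells (log2 fold change 1.92), with the deepest cells left out (2.06) and with the cells that had *Ptprc* or *Lyz2* left out (1.38). *Kit* encodes the receptor of stem cell factor and had 271 and 163 CPM in Runx1-high against 127 and 25.2 CPM in Runx1-low sums (log2 1.86 ± 0.48, edgeR adjusted p = 0.0130). Per cell, the median was 273 against 11.7 CPM in replicate 1 and 66.0 against 4.53 CPM in replicate 2, although all cells had been sorted as *Kit*+ by the protein. The genes of the other positive markers did not pass the test. *Procr* (CD201) had 236 and 169 CPM against 247 and 166 CPM, *Cd44* 278 and 200.2 CPM against 338 and 223 CPM, and *Pecam1* (CD31) 194 and 382 CPM against 291 and 546 CPM. Of the negative markers, *Itga2b* (CD41) had 3.16 against 178 CPM in replicate 1 and 35.1 against 35.4 CPM in replicate 2, so that its transcript was more abundant in the Runx1-low sum of the first library. There it was counted in 11 of 19 Runx1-high and 10 of 22 Runx1-low cells. The medians were 1.97 and 0 CPM, and the highest Runx1-low cell had 874 CPM. *Spn* (CD43) had 152 counts against 0 in replicate 1 and 49 against 1 in replicate 2, and *Ptprc* (CD45) was counted in 1 and 2 Runx1-high cells and in 0 Runx1-low cells.

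**Figure D4:**
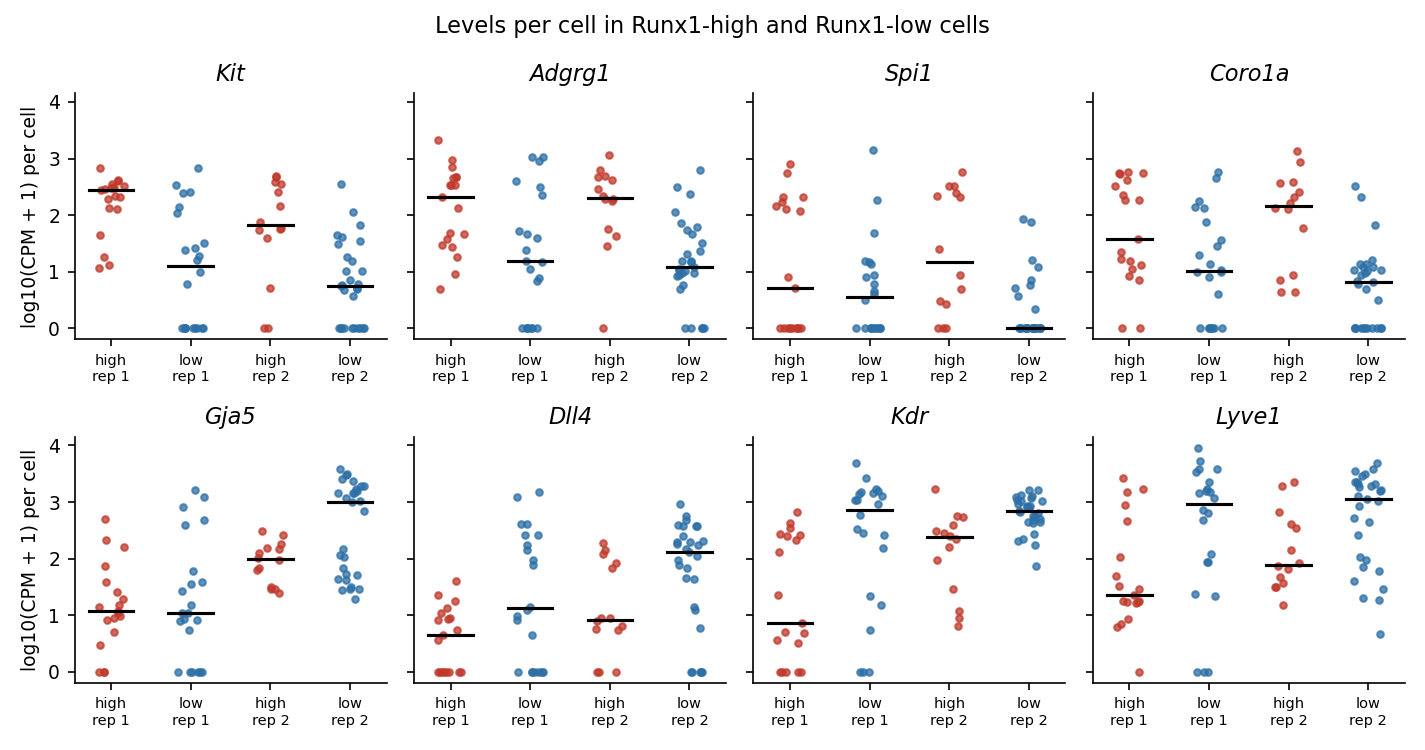
Level per cell, as log10(CPM + 1), of 4 genes called higher (*Kit*, *Spi1*, *Coro1a*, *Adgrg1*) and 4 called lower (*Gja5*, *Dll4*, *Kdr*, *Lyve1*) in Runx1-high (red) and Runx1-low (blue) cells of each library, with the median as a bar. The groups overlap for all 8 genes, with median *Kit* at 273 against 11.7 CPM in replicate 1 and median *Kdr* at 6.20 against 744 CPM.

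Genes of signalling and the cytoskeleton of blood cells had a median log2 fold change of 0.96 over 24 tested members. Estimates were above 0 for 17 and in both libraries for 12, and only *Coro1a* was called, against 0.379% of all genes tested called higher. *Rac2*, a small GTPase of blood cells, narrowly missed the threshold at 104 and 101 CPM against 12.4 and 20.7 CPM (log2 2.65 ± 0.80, edgeR adjusted p = 0.0529). With thinned cells none of 13 passed the test and the median of the list was 0.27. With the cells that had *Ptprc* or *Lyz2* left out none of 19 passed it and the median was 0.50. Outside the fixed lists, *Plcg2*, a phospholipase of immune receptor signalling chosen after its values were seen, had 524 and 245 CPM against 216 and 65.6 CPM and was called (log2 1.57 ± 0.37, edgeR adjusted p = 0.00455). Of 19 cytokine receptor and Jak-Stat genes tested, only *Kit* was called, against 0.379% of all genes tested called higher. The median was -0.31, with opposite signs in the libraries (0.05 and -0.32), and it was 0.31 with DESeq2 and 0.00 with the deepest cells left out. Of 8 integrin and adhesion genes, *Itgb1* was called lower (195 and 309 CPM against 449 and 732 CPM, log2 -1.25 ± 0.32, edgeR adjusted p = 0.0121), against 1.19% of all genes tested. *Itgb1* was not called with thinned cells (-0.82) or with the deepest cells left out (-1.07). The list median was 0.37, with opposite signs in the libraries (-0.42 and 1.04).

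Transcripts of mature blood cells were counted in some cells of both groups. Cells with any *Ptprc* count or with 10 or more *Lyz2* counts numbered 7 of 19 Runx1-high and 2 of 22 Runx1-low cells in replicate 1, and 7 of 14 and 1 of 29 in replicate 2. *Ptprc* itself was counted in only 1 and 2 of these, and absolute counts favour the deeper Runx1-high cells. With cells thinned to 20000 counts, those with any *Ptprc* or *Lyz2* count numbered 7 of 19 against 5 of 21 in replicate 1 and 5 of 14 against 1 of 29 in replicate 2. Of 18 markers of myeloid cells, 7 were at 0 in all sums (*Elane*, *Ctsg*, *C1qa*, *C1qb*, *C1qc*, *Cx3cr1* and *Adgre1*), which are defining genes of granulocytes and macrophages. The summed level of the 18 was 395 and 365 CPM in Runx1-high and 468 and 423 CPM in Runx1-low sums. *Mrc1*, which is also on the list of endothelial scavenger receptors, was the most abundant by group mean, and without it the sums were 386 and 278 CPM against 130 and 199 CPM. Of 9 tested, 1 was called higher (*Prtn3*) and 1 lower (*Mrc1*), against 0.379% and 1.19% of all genes tested. Their median log2 fold change was 2.58. It was 1.31 over 7 genes with the cells that had *Ptprc* or *Lyz2* left out, and 0.93 over 4 genes with thinned cells, where none passed the test. With the deepest cells left out 0 were called higher. *Lyz2* had 86.4 and 52.6 CPM against 33.3 and 7.58 CPM, and *Mpo* 76.2 and 2.12 CPM against 4.13 and 0 CPM, and neither passed the test. *Prtn3*, a granule protease gene, was called higher with 320 counts against 0 in replicate 1 (at least 62.4-fold higher at a floor of 3 counts) and 101 against 1 in replicate 2 (ratio 123 in CPM, exact 95% interval 21.5 to 4895 for counting error only), but over 50% of its counts in a library came from 1 cell. With the cells that had *Ptprc* or *Lyz2* left out, edgeR called 15 genes higher and 53 lower, of which 12 and 48 were among the 40 and 126. The log2 fold change was then 1.16 for *Coro1a*, 0.47 for *Adgrg1*, 1.38 for *Kit*, 3.84 for *Spi1* and 2.79 for *Ikzf1*, and of these only *Ikzf1* was called. None of the 7 hematopoietic features then passed the test, with a median of 1.15. Their estimates were 1.88 for *Gfi1*, 1.38 for *Bcl11a*, 1.29 for *Neurl3*, 1.15 for *Angpt1* and 0.47 for *Adgrg1*, but -2.69 for *Ikzf2* and -0.24 for *Hlf*. The share of blood cells or their precursors among these cells was not tested.

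Many endothelial genes were lower in Runx1-high cells. Of 31 pan-endothelial genes tested, 14 were called lower (against 1.19% of all genes tested) and 0 higher, 29 had ratios below 1 in both libraries, and the median log2 fold change was -1.11 (-1.09 in replicate 1 and -1.14 in replicate 2). Summed over the list, the level was 4623 and 7492 CPM in Runx1-high and 10646 and 16440 CPM in Runx1-low sums. *Kdr*, the main receptor of Vegf, had 161 and 269.6 CPM against 840.2 and 828 CPM (log2 -2.02 ± 0.31, edgeR adjusted p = 1.81e-07). Per cell its median was 6.20 against 744 CPM in replicate 1 and 236 against 684 CPM in replicate 2. *Cldn5*, the tight junction claudin of endothelium, had 238 and 428 CPM against 692 and 1423 CPM (log2 -1.66 ± 0.29, edgeR adjusted p = 5.51e-06). *Cdh5*, VE-cadherin, fell less, from 753 and 859.8 CPM in Runx1-low to 321 and 371 CPM in Runx1-high sums (log2 -1.24 ± 0.30, edgeR adjusted p = 0.00511). It was counted in every Runx1-high cell, 19 of 19 and 14 of 14. The other 11 were *Tek*, *Flt1*, *Nrp1*, *Plvap*, *Clec14a*, *Ramp2*, *Cd93*, *Mcam*, *Icam2*, *Sox17* and *Vwf*, with log2 fold changes from -1.08 (*Icam2*) to -2.37 (*Mcam*). *Icam2* and *Mcam* were each called in 3 of 15 alternatives, and with thinned cells their estimates were -0.75 and -0.84. *Cd93*, a surface lectin of endothelium, had 267 and 352 CPM against 799 and 831 CPM. *Pecam1*, *Tie1* (249 and 439 CPM against 439 and 511 CPM) and *Egfl7* (383 and 626 CPM against 574 and 979 CPM) were below in both libraries and did not pass the test. The endothelial feature genes were also chosen by the study to score such cells and are not independent evidence of direction. Of 14 tested, 6 were called lower, against 1.19% of all genes tested, with a median of -1.59. None of 13 passed the test with thinned cells (median -1.51). With the cells that had *Ptprc* or *Lyz2* left out, 8 of the 31 pan-endothelial genes were called lower and the median was -1.04. With thinned cells 1 of 31 was called and the median was -0.88.

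Genes of arterial and venous identity included several that passed the test. Of 17 arterial genes tested, 8 were called lower (*Gja4*, *Gja5*, *Dll4*, *Jag1*, *Vegfc*, *Epas1*, *Sox17* and *Acvrl1*), against 1.19% of all genes tested, with a list median of -1.79. With thinned cells 1 of 15 was called with a median of -1.76, and with DESeq2 7 of 17 were. *Gja4*, connexin 37, had 54.1 and 264 CPM against 453 and 791 CPM (log2 -2.34 ± 0.35, edgeR adjusted p = 3.13e-08), and *Jag1*, a Notch ligand, 8.73 and 8.50 CPM against 137 and 87.3 CPM (log2 -3.68 ± 0.82, edgeR adjusted p = 0.00156). *Epas1*, the hypoxia-inducible factor HIF-2α, had 83.4 and 126 CPM against 478 and 434 CPM. The receptor genes *Notch1* (289 and 180.1 CPM against 379 and 304 CPM) and *Notch4* (99.2 and 27.1 CPM against 34.6 and 97.6 CPM) and the target *Hey1* (46.6 and 74.0 CPM against 166 and 173 CPM) did not pass the test. Of 6 venous genes tested, only *Nrp2* was called lower (21.9 and 18.4 CPM against 115 and 113 CPM), against 1.19% of all genes tested. The list median was -1.68. DESeq2 called 3 of the 6 lower, against 188 of all 10338 genes it tested. With the cells that had *Ptprc* or *Lyz2* left out none of 5 passed the test (median -0.60), nor did any of 5 with thinned cells (median -1.14), and the call of *Nrp2* was kept in 6 of 15 alternatives. *Nr2f2*, the transcription factor of venous identity, had 3 and 0 counts in Runx1-high against 125 and 167 in Runx1-low sums, at least 45.8-fold lower in replicate 2 and a ratio of 71.2 (exact 95% interval, 23.8 to 349.9) in replicate 1, but the interval covers counting error only, the gene did not pass the test, and it was counted in 4 of 22 and 6 of 29 Runx1-low cells. *Aplnr*, the apelin receptor, had 36.0 and 6.90 CPM against 85.1 and 123 CPM and did not pass it.

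The 4 scavenger receptor genes of yolk sac endothelium, which take up hyaluronan, collagen fragments and glycoproteins, were all called lower, against 1.19% of all genes tested. *Lyve1* (7:110850607-110863239) had 318 and 352 CPM in Runx1-high and 1478 and 1342 CPM in Runx1-low sums (log2 -2.10 ± 0.28, edgeR adjusted p = 1.77e-10). Per cell its median was 21.7 against 962 CPM in replicate 1 and 77.0 against 1117 CPM in replicate 2. *Stab1* had 29.5 and 140 CPM against 370.2 and 422 CPM, *Stab2* 39.8 and 148 CPM against 255 and 604 CPM, and *Mrc1* 8.55 and 87.3 CPM against 338 and 223 CPM. The list median was -2.50, and -1.93 with the cells that had *Ptprc* or *Lyz2* left out, where all 4 were again called. With thinned cells only *Lyve1* of the 4 passed the test, and the list median was -2.26.

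**Figure D5:**
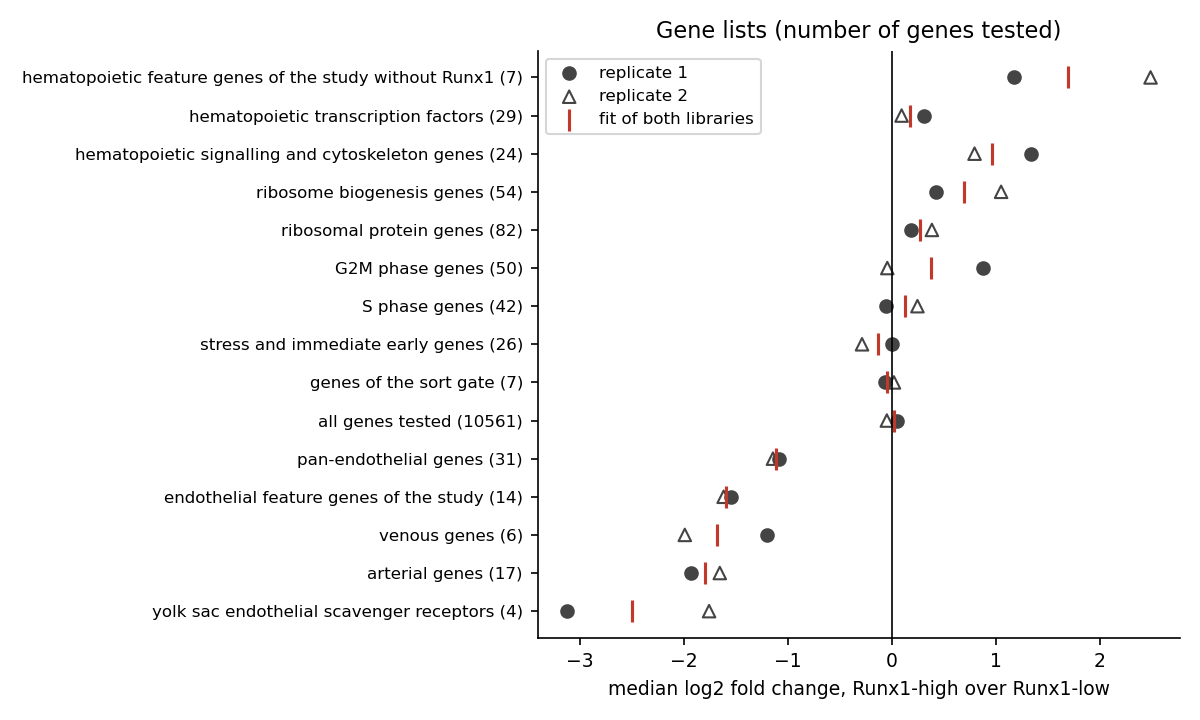
Median log2 fold change of each gene list in replicate 1 (circles), in replicate 2 (triangles) and in the fit of both libraries (red bars), with the number of genes tested in brackets. Endothelial lists lie below 0 in both libraries, from -1.11 for pan-endothelial genes to -2.50 for scavenger receptors in the fit, against 0.02 for all genes tested.

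Ribosome biogenesis genes had estimates mostly above 0, and few passed the test. Of 54 tested, 49 had estimates above 0, 34 were above 0 in both libraries, 4 were called higher (against 0.379% of all genes tested) and 0 lower, and the median was 0.69 (0.43 in replicate 1 and 1.05 in replicate 2). Their summed level was 14567 and 12595 CPM in Runx1-high and 10868 and 5791 CPM in Runx1-low sums. *Nhp2*, a protein of H/ACA small nucleolar particles (11:51619735-51623714), had 689 and 799 CPM against 176 and 214 CPM, and of the 40 genes called higher it had the smallest adjusted p (log2 1.91 ± 0.32, edgeR adjusted p = 1.90e-06). The nucleolar proteins *Ncl* (2735 and 2002 CPM against 1783 and 849 CPM; log2 0.91 ± 0.24, edgeR adjusted p = 0.0137), *Npm1* (2678 and 2039 CPM against 2079 and 847 CPM; log2 0.79 ± 0.24, edgeR adjusted p = 0.0475) and *Gnl3* (348 and 351 CPM against 157 and 125 CPM; log2 1.30 ± 0.38, edgeR adjusted p = 0.0406) had smaller changes. For *Ncl* and *Npm1* the difference was larger in replicate 2. Of 15 alternatives, calls were kept in 11 for *Nhp2*, 10 for *Ncl*, 7 for *Gnl3* and 3 for *Npm1*. With the cells that had *Ptprc* or *Lyz2* left out, 4 of the 54 were called higher and the median was 0.86. With thinned cells none of 52 passed the test (median 0.63), and with the deepest cell of each library and group left out 1 of 54 did. *Dkc1*, another H/ACA protein, had 377 and 266 CPM against 213 and 75.5 CPM and missed the threshold (edgeR adjusted p = 0.0506). Of 82 ribosomal protein genes tested, 67 were above 0 in both libraries, against 2953 of all 10561 genes tested. By edgeR 0 of the 82 were called, with 15 at an unadjusted p under 0.05 (944 of all genes tested), and by DESeq2 0. Their median was 0.27. Those genes held 163100 and 149650 CPM in Runx1-high and 144730 and 114490 CPM in Runx1-low sums.

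No member of the S phase and G2M phase lists passed the test. Of 42 S phase and 50 G2M phase genes edgeR called 0, and DESeq2 also called 0. The unadjusted p of edgeR was under 0.05 for 3 and 5 of them, against 944 of all 10561 genes tested. The median log2 fold change of the S phase genes was 0.13 (-0.06 in replicate 1 and 0.25 in replicate 2). That of the G2M phase genes was 0.38, made of 0.88 in replicate 1 and -0.04 in replicate 2, so the libraries differed. *Hmgb2*, the most abundant of them, had 1329 and 1003 CPM against 602 and 964 CPM, and *Cdca8*, a kinetochore protein, 342 and 341 CPM against 85.4 and 223 CPM, neither past the threshold. Stress and immediate early genes, which can respond to cell handling, had a median of -0.13 over 26 genes. By edgeR 0 of them were called, with 7 of the 26 at an unadjusted p under 0.05 (944 of all 10561 genes tested), and by DESeq2 0. *Fos*, an immediate early factor, had 572 and 390.2 CPM against 829 and 633 CPM.

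Markers of other cell types of the yolk sac are given as summed levels. Erythroid markers summed to 28.8 and 52.2 CPM in Runx1-high and 4.76 and 16.8 CPM in Runx1-low sums, and the adult alpha and beta globin genes, *Gata1* and *Slc4a1* were at 0 in all sums. The embryonic globin *Hbb-y* had 4.83 and 21.4 CPM against 0.635 and 0.291 CPM, and *Hbb-bh1* 11.7 and 7.97 CPM against 0 and 0 CPM. Megakaryocyte markers summed to 147 and 184 CPM against 295 and 131 CPM, with 5 of 12 at 0 (*Gp1bb*, *Gp5*, *Gp6*, *Ppbp* and *Treml1*). *Itga2b* was the most abundant of them by group mean, but held only 3.16 of the 147 CPM in the Runx1-high sum of replicate 1. Mesenchymal markers summed to 99.2 and 67.6 CPM against 92.7 and 48.2 CPM, with 0 of 15 at 0 in all sums. *Acta2* was the most abundant of them by group mean, but held only 2.22 of the 92.7 CPM in the Runx1-low sum of replicate 1. The mesenchymal list includes *Col1a1*, and cells with 100 or more *Col1a1* counts had been left out. Visceral endoderm markers summed to 73.4 and 77.5 CPM against 15.6 and 84.6 CPM, mostly from *Trf*, with 9 of 15 at 0 (*Apoa4*, *Apob*, *Rbp4*, *Amn*, *Cubn*, *Fgb*, *Hnf4a*, *Cdh1* and *Epcam*). By edgeR 0 genes of these 4 lists were called, and by DESeq2 0. The unadjusted p of edgeR was under 0.05 for 1 of 6 megakaryocyte genes and 0 of the others, against 944 of all 10561 genes tested. The medians were 3.34 over 4 erythroid, 0.55 over 6 megakaryocyte, 0.27 over 7 mesenchymal and 0.87 over 4 visceral endoderm genes tested. The megakaryocyte median was -1.16 over 4 genes with the cells that had *Ptprc* or *Lyz2* left out, and the mesenchymal one -0.02 with the deepest cells left out. The part of such transcripts in the differences above was not tested.

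*Runx1* binds the letters TGTGGT or TGCGGT, which read ACCACA or ACCGCA on the other strand, and promoters were searched for these 4 words as a description. Promoters here are the 300 bases from 250 before to 50 after a transcription start, from RefSeq on GRCm38.p6. Of all 32851 promoters, with every start of a gene counted, 7362 (22.4%) held a word. The other shares count only the first promoter of each gene. Among genes tested it was 1686 of 8121 with a promoter (20.8%), among those called higher 7 of 32 (21.9%), and among those called lower 19 of 89 (21.3%). The shares of called genes were thus close to that of all genes tested. The 4 promoters shown are those of the gene that defined the groups, with a distal and a proximal start, of *Shmt2* as one of the 7 called higher, and of *Cldn5* as one of the 19 called lower. All are written from 5′ to 3′ on the strand of the gene, with matched words in capitals. The distal *Runx1* promoter (chr16:92826025-92826324, minus strand) held the word ACCACA 2 times, starting 28 and 36 bases after the start, and the proximal one (chr16:92697280-92697579, minus strand) held 0 matches. The *Shmt2* promoter (chr10:127522395-127522694, minus strand) held ACCACA 249 bases before the start, and the *Cldn5* promoter (chr16:18776597-18776896, plus strand) held TGCGGT at 205 and 190 bases before it.
Runx1 distal promoter: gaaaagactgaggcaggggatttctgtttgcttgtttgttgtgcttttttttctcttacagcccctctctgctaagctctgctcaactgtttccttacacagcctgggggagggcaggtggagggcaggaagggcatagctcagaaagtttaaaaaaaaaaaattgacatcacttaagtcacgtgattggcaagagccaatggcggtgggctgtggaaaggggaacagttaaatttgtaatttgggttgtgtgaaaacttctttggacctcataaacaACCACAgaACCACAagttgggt
Runx1 proximal promoter: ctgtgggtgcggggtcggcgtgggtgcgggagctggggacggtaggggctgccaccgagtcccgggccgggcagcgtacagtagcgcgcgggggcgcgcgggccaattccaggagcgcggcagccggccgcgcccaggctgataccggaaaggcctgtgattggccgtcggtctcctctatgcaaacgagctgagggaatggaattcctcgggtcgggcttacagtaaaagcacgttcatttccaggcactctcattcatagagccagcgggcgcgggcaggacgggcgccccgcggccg
Shmt2 promoter: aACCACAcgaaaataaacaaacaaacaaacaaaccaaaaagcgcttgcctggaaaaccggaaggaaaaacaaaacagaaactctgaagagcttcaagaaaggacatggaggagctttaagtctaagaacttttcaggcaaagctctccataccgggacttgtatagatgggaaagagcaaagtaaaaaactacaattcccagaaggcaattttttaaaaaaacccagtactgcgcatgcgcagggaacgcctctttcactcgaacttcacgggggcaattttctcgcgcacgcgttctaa
Cldn5 promoter: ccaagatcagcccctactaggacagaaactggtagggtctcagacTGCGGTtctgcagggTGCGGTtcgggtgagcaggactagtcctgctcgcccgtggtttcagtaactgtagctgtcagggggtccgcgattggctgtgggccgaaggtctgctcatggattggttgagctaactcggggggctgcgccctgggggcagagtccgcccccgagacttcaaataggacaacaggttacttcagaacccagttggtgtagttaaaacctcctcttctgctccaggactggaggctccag
*Shmt2*, the mitochondrial serine hydroxymethyltransferase, had 189 and 212 CPM in Runx1-high and 69.2 and 47.3 CPM in Runx1-low sums (log2 1.78 ± 0.49, edgeR adjusted p = 0.0275), and the values of *Cldn5* are given above. A match is not evidence of binding, and no binding data were used here.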

How the data were processed

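Libraries were made by modified STRT-seq. The authors split reads by cell barcode, trimmed them, aligned them to the mm10 transcriptome with HISAT2 2.1.0, counted unique alignments with HTSeq and removed duplicates by UMI, and the deposited values are raw counts per gene and cell. The count tables hold 23154 genes (22124 matched by symbol to GENCODE M21, GRCm38, whose gene coordinates are given) and no mitochondrial gene (0). They hold 8932527 and 12706360 counts. According to the methods, the authors filtered cells by numbers of genes and transcripts (the lowest number of genes in the cells used is 1941), and no doublet caller was run here. CPM per cell and per sum were computed from all counts.

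Counts were summed per library and group into 4 sums. edgeR 4.0.16 (R 4.3.3; filterByExpr, TMM, quasi-likelihood test, library as a term, Benjamini-Hochberg adjustment over all genes but *Runx1*, threshold 0.05) has 1 residual degree of freedom per gene here. Errors after ± are the absolute log2 fold change divided by the square root of the F statistic of that test. Within-library log2 ratios use a pseudocount of 1 CPM. Both sums of a library share its preparation, so replicate numbers pair them; deviations of the replicate 1 sums correlated at 0.163 over 10561 genes, which are not independent. Named genes are the 12 with the largest estimates in each direction under the rule in the text; members of gene lists are named besides. The groups, members and lists were chosen with earlier results of these data known, so lists are described by counts and medians with no test. Thinning left out 1 Runx1-low cell under 20000 counts. Tests were tried on simulated counts. Alternatives were other thresholds of *Runx1* (50 and 200 CPM), cells left out or kept, thinning, RLE factors, no filter and DESeq2 1.42.0. Tables used Python 3.11.15, numpy 2.4.6, pandas 2.3.3 and scipy 1.17.1; figures used matplotlib 3.10.9.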

Additional observations from a re-analysis of the deposited data

How the results depend on the processing

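The number of calls moved with the setting. Against 40 genes higher and 126 lower, no replicate block gave 0 and 0 (609 at an unadjusted p under 0.05 by edgeR). Thinning cells to 20000 counts gave 0 and 7, the same with no block 0 and 0 (468 at an unadjusted p under 0.05), thinning and regrouping 23 and 78, and thinning to 50000 counts 13 and 74. Taking only Runx1-low cells with 0 *Runx1* counts gave 13 and 35 and moved the median of all genes to 0.48. Leaving out cells with any *Ptprc* count or 10 or more *Lyz2* counts gave 15 and 53. Leaving out the deepest cell of each library and group gave 13 and 69. Counts stayed within 1.5 times of 40 and 126 with thresholds of 50 CPM (33 and 130, of which 22 and 92 were among the 40 and 126) and 200 CPM (43 and 137, of which 25 and 91 were), with *Col1a1* cells kept (47 and 148), with cells holding both *Xist* and Y-linked counts left out (30 and 89), with RLE factors (38 and 117), with DESeq2 (58 and 188) and with no filter (37 and 112). Thinning kept 6683 genes with the first groups and 6785 with regrouping, at the same depth, and regrouping also moved cells between the groups. The cause of the fall to 7 was not tested, nor was that of the loss without the block. Thinning to 50000 counts, thinning with no block and leaving out deepest cells were chosen after seeing the data. Of the 166 called genes, which the test picks for a like direction in both libraries, all those with an estimate kept their sign under every alternative, except 1 of 162 with Runx1-low cells at 0 counts. Values of genes not called and of some lists changed sign, among them these: without cells with *Ptprc* or *Lyz2* the median of hematopoietic transcription factors went from 0.17 to -0.05, of cytokine receptor genes from -0.31 to 0.10, of integrins from 0.37 to -0.24 and of megakaryocyte markers from 0.55 to -1.16, while *Ikzf2* went from 1.70 to -2.69 and *Myb* from 1.68 to -0.14. The cytokine receptor median was 0.31 with DESeq2, and with the deepest cells left out S phase genes went from 0.13 to -0.10. With 1 library left out no residual degrees of freedom remain, so replicates are given as values only. Limits: 2 libraries, 4 sums, and a deepest cell that holds 12.6 to 16.9% of its sum; 5 of the 40 and 35 of the 126 genes had over 50% of their counts in 1 cell of a library's higher group.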

Other observations

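The lists below were drawn up after values had been seen and are described with no test. Of 24 enzymes of serine, one-carbon, purine and polyamine metabolism tested, 6 were called higher (against 0.379% of all genes tested) and 0 lower, 19 were above 0 in both libraries, and the median log2 fold change was 1.08, against 0.02 over all genes tested. The 6 were *Adsl*, *Dctpp1*, *Phgdh*, *Shmt2*, *Srm* and *Sms*. *Phgdh*, the first enzyme of serine synthesis, had 146 and 270.2 CPM against 54.0 and 44.4 CPM in replicates 1 and 2 (log2 2.00 ± 0.50, edgeR quasi-likelihood test, Benjamini-Hochberg adjusted p = 0.00963). *Srm*, spermidine synthase, had 308 and 459 CPM against 224 and 72.7 CPM. With the cells that had *Ptprc* or *Lyz2* left out, the median was 1.38 and none passed the test. With thinned cells none of 22 passed it, and with the deepest cells left out 1 of 24 did. The 8 subunits of the cytosolic chaperonin, which folds actin and tubulin, were all above 0 in both libraries (median 0.70). Of these, only *Cct3* was called (657 and 544 CPM against 306 and 209 CPM), against 0.379% of all genes tested called higher. None of the 8 passed the test with thinned cells, nor with the cells that had *Ptprc* or *Lyz2* left out. *Eif5a*, a translation factor, had 1155 and 2105 CPM against 594 and 927 CPM and was called. Of 8 *Myc* family genes tested, only *Mycn* was called, against 0.379% of all genes tested called higher. None passed the test with thinned cells, with the deepest cells left out or with the cells that had *Ptprc* or *Lyz2* left out. *Myc* had 99.8 and 87.3 CPM against 57.8 and 27.2 CPM. The list median was 0.15, with opposite signs in the libraries (0.77 and -0.13). It was 1.10 with thinned cells and 0.52 with DESeq2, which called 1 higher and 1 lower.

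Of 19 basement membrane and matrix genes tested, 12 were called lower (against 1.19% of all genes tested) and 0 higher, 17 were below 0 in both libraries, and the median was -1.60. With thinned cells 2 of 18 were called (median -1.62), and with the deepest cells left out 8 of 19 (median -1.78). *Sparc*, a collagen-binding protein, had 840 and 1060.3 CPM against 3154 and 3028 CPM (log2 -1.73 ± 0.24, edgeR quasi-likelihood test, Benjamini-Hochberg adjusted p = 6.01e-10). The collagen IV genes *Col4a1* (598 and 597 CPM against 1228 and 1648 CPM) and *Col4a2* (189.9 and 393 CPM against 525 and 961 CPM) were also lower. Of 20 imprinted genes tested, 5 were called lower (*Igf2*, *H19*, *Mest*, *Plagl1* and *Grb10*; against 1.19% of all genes tested) and 0 higher, with a median of -0.90 that differed between the libraries (-0.31 and -1.02). With thinned cells none of 18 passed the test and the median was -0.55. *Igf2* had 2470 and 2762 CPM against 4013 and 6967 CPM, and the neighbouring *H19* had 2153 and 2811 CPM against 3947 and 6059 CPM. *Meg3* and *Rian*, from another imprinted cluster, had 239 against 100.3 CPM and 36.6 against 3.49 CPM in replicate 1, but 15.6 against 358 CPM and 0 against 27.0 CPM in replicate 2, opposite directions in the 2 libraries. *Malat1*, a nuclear RNA and one of the most abundant transcripts in the sums, had 8993 and 7277 CPM against 13233 and 12071 CPM and was called lower also with thinned cells; nuclear RNA share per cell was not measured.

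Cells with 5 or more counts of Y-linked genes and under 5 of *Xist* numbered 9 of 19 Runx1-high and 9 of 22 Runx1-low cells in replicate 1, and 0 of 14 and 10 of 29 in replicate 2. Those with *Xist* alone numbered 4 and 3, then 7 and 9, and those with both 2 and 0, then 1 and 1. The part of embryo sex in the differences was not tested.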
